A study of Mus musculus with 14 samples.

Results

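Genes named for the subunits of the mitochondrial respiratory chain and of the ATP synthase were followed in RNA-seq of microglia sorted from the dorsal lumbar spinal cord of mice. Members were every gene in the deposited values whose symbol marks it as a subunit of complex I, II, III, IV or V, with assembly factors named Ndufaf (8 genes) and pseudogenes ending in -ps (6 genes) left out. This gave 97 of 14329 genes, 84 encoded in the nucleus and 13 in mitochondrial DNA. Of the 84, 3 (Cox6c2, Ndufb4c and Ndufs6b) have no coding bases in the GRCm39 annotation, which lists them as processed pseudogenes, and had means of 11.96, 12.4 and 19.03 normalised counts. Complex I had 46 members, complex II 4, complex III 10, complex IV 18 and complex V 19, with Ndufa4 counted in complex IV. All 97 passed the filter (10 or more reads in 7 or more libraries) and were tested among the 12645 genes that did.

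The study compared wild-type (WT) and TASTPM mice, 6 months old and on a C57BL/6 background, at day 5 after K/BxN or Control serum transfer (ST). TASTPM mice are heterozygous for human transgenes, among them APP with the Swedish mutation, under the Thy-1 promoter, which drives expression mainly in neurons. K/BxN serum comes from arthritic mice and transfers an inflammatory arthritis, and the Control serum came from KRN/C57 mice. There were 3 WT Control ST, 4 WT K/BxN ST, 3 TASTPM Control ST and 4 TASTPM K/BxN ST libraries, each made from 2000 CD45low CD11b+ CX3CR1+ cells. The numbers of the TASTPM K/BxN ST replicates are taken from the sample labels, and libraries of the other groups are numbered in the order of the deposited values. The methods describe replicates as individual mice. The study used mice of both sexes, and the labels give no sex for a library.

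Complex I (NADH dehydrogenase) and complex II (succinate dehydrogenase) pass electrons from fuel oxidation to ubiquinone, complex III (the cytochrome bc1 complex) passes them to cytochrome c, and complex IV (cytochrome c oxidase) passes them to oxygen. Complexes I, III and IV pump protons as they do so, and complex V, the ATP synthase, uses the proton gradient to make ATP. Mitochondrial DNA encodes core subunits of complexes I, III, IV and V, whereas all of complex II and most other subunits are nuclear genes, imported as protein. In macrophages and microglia, inflammatory stimulation is known to shift the balance between oxidative phosphorylation and glycolysis.

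Before the members are described, 4 of the 8 K/BxN ST libraries must be set apart. TASTPM K/BxN ST replicates 1 and 2 and WT K/BxN ST libraries 1 and 2 had 5.32%, 3.36%, 5.01% and 3.07% of their reads on 15 monocyte and neutrophil markers, against 0.0577% to 0.138% in the other 10 libraries. In the 4 libraries 10 of these 15 markers were above the highest of the other 10 libraries, among them Ly6c2 (12898 to 29133 against 1.87 to 17.8 normalised counts) and Ccr2 (8537 to 27035 against 3.13 to 86.0), which define classical monocytes. The gate drawn in the supplement of the study also leaves out cells with Ly6C or CCR2 on their surface, and so by design would remove such cells. Of 10 microglia markers 8 were below the lowest of the other 10 libraries, and microglial P2ry12 was at 34656 to 94752 against 106484 to 166138. Of 4 dendritic cell markers listed in the data 3 were above the other 10 libraries. The 4 libraries had 0 to 12.5 normalised counts of Xist, an RNA made in female cells, as had TASTPM K/BxN ST replicate 3 (1.17) and WT Control ST library 1 (2.81), against 45.3 to 5816 in the other 8. Reads on genes ranged from 14223015 to 20239175 per library, with a median of 17081523.5. In bulk RNA, fewer cells of a type and less RNA per cell cannot be told apart.

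Among the nuclear members, expression was broad and uneven. Levels are given here as the mean normalised count over the 14 libraries per kilobase of coding sequence. Reads on untranslated exons may also be counted, so genes with long untranslated parts can stand higher by this measure. Uqcr11, for example, has 168 coding bases in a transcript of 2746, so the order of genes depends on the length used. The highest in each complex was Ndufa1 in complex I (5350), the membrane anchor Sdhd in complex II (4567), Uqcr11 in complex III (6347), Cox8a in complex IV (8915) and Atp5b, the catalytic beta subunit, in complex V (7533). The lowest were Ndufb2 (357), the other membrane anchor Sdhc (2664), the core protein Uqcrc2 (1107), Cox6b2 (119) and Atp5o (702). Ndufb2 and Atp5o share 47.0% and 35.4% of their coding bases with exons of other genes in the GRCm39 annotation, in each case including a gene on the same strand, so their counts are uncertain. Of 81 nuclear members with a coding length, 28 share some coding bases with another gene and 5 share at least 50%, and 18 of the 84 hold a run of at least 150 bases, the length of a read, that occurs elsewhere in the genome. The values of those genes are less certain.

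Complex IV has tissue isoforms, and the widely expressed forms had the higher levels. Cox6a1, the widely expressed form of subunit 6a, was at 7579 per kilobase and Cox6a2, known from heart and skeletal muscle, at 240. Cox6b1 was at 7524 per kilobase against 119 for Cox6b2, known from testis. Cox4i1, the common form of subunit 4, was at 6411 and Ndufa4, a late-found complex IV subunit, at 6654 per kilobase. Cox7a2 was at 3354 and its relative Cox7a2l at 2857. Their transcripts hold 5250 and 1373 bases, so the order of these genes depends on the length used. Cox5b was at 2699 and Cox5a at 1235 although the enzyme holds these subunits in equal number. Of the c-ring genes of the ATP synthase, which code for the same mature protein, Atp5g3 was at 4210, Atp5g1 at 2441 and Atp5g2 at 2203 per kilobase. The transcript of Atp5g3 holds 988 bases, that of Atp5g1 4755 and that of Atp5g2 441, so this order too depends on the length used.

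**Figure D1:**
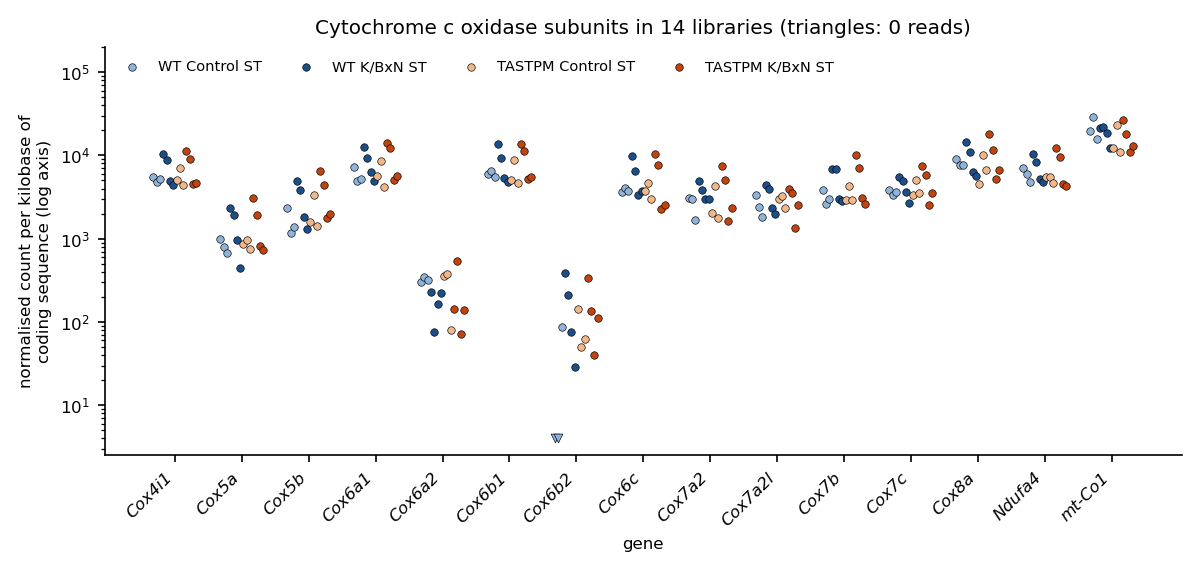
Cytochrome c oxidase subunits: normalised count per kilobase of coding sequence (log axis) for 15 genes (x axis), 1 point per library, coloured by group. Points of Cox6a2 and Cox6b2 lie below those of every other gene shown, except that 1 Cox6a2 point lies above the lowest Cox5a point, and 2 WT Control ST libraries had 0 reads on Cox6b2 (triangles).

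The nuclear members were high in the same 4 libraries in which the monocyte and neutrophil markers were high. Each library was compared with the mean log2 value of the Control ST libraries of its genotype, and the median over the 84 nuclear members was taken. For replicates 1 to 4 of TASTPM K/BxN ST this median log2 ratio was 1.07, 0.74, -0.21 and -0.10. For WT K/BxN ST, libraries 1 to 4, it was 0.88, 0.56, -0.01 and -0.14. The medians of the Control ST libraries ranged from -0.34 to 0.40 in TASTPM and from -0.09 to 0.16 in WT. So within each K/BxN ST group the 2 libraries with high markers lay above every Control ST library and the other 2 lay within the Control ST range or close to it. Over all 12645 genes tested the same median lay between -0.00 and 0.11 in every library. The part that monocyte and neutrophil RNA, or the sex of the mice, has in the level of the members was not tested.

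Member by member, 76 and 62 of the 84 nuclear members in TASTPM K/BxN ST replicates 1 and 2, and 68 and 44 in WT K/BxN ST libraries 1 and 2, were above all 6 Control ST libraries. For all genes tested the shares were 22.9%, 16.9%, 20.9% and 15.7%. In the other 4 K/BxN ST libraries 1 to 7 nuclear members were above all 6, and 9.05% to 16.4% of all genes. TASTPM Control ST library 2 had 47 nuclear members, and 17.6% of all genes, above the other 5 Control ST libraries. As a share of all reads on genes, the nuclear members took 1.22%, 0.920%, 1.03% and 0.847% in the 4 libraries and 0.525% to 0.710% in the other 10.

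**Figure D2:**
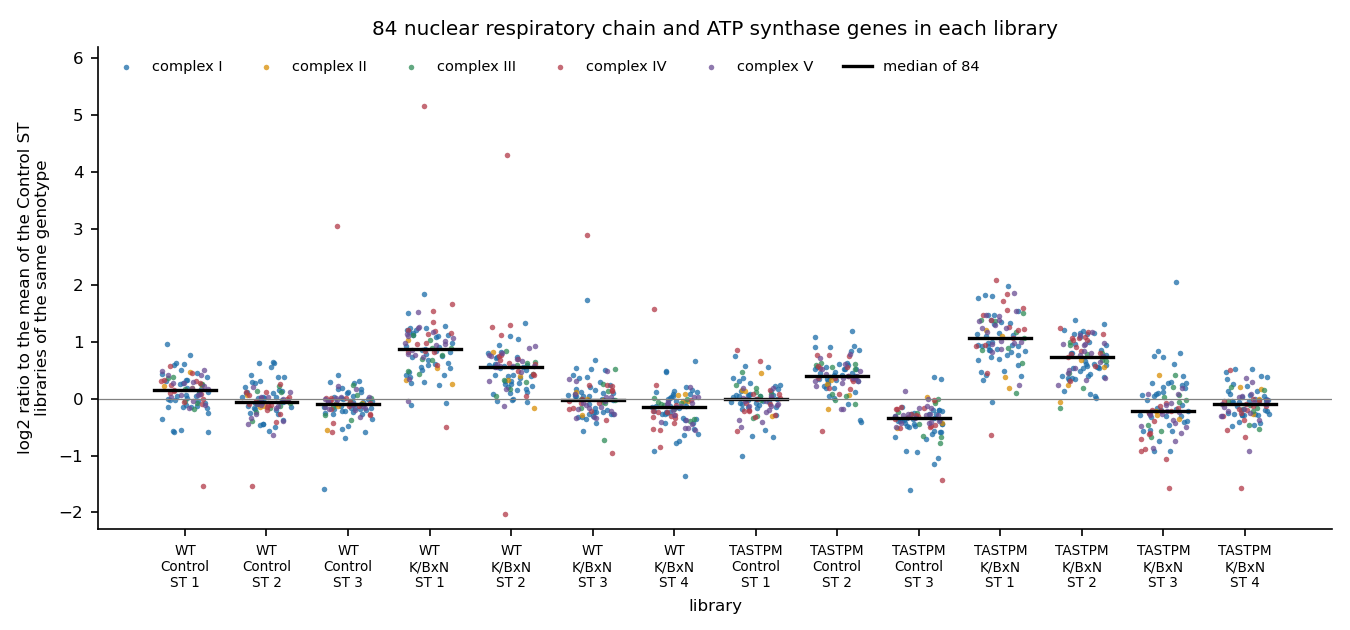
Log2 ratio of each nuclear member to the mean of the Control ST libraries of the same genotype (y axis) in each library (x axis), 1 point per gene coloured by complex, with the median of the 84 as a bar. The medians of K/BxN ST libraries 1 and 2 lie between 0.56 and 1.07 and those of K/BxN ST libraries 3 and 4 between -0.21 and -0.01. The points far from the rest in WT libraries include Cox6b2, which had few reads.

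**Figure D3:**
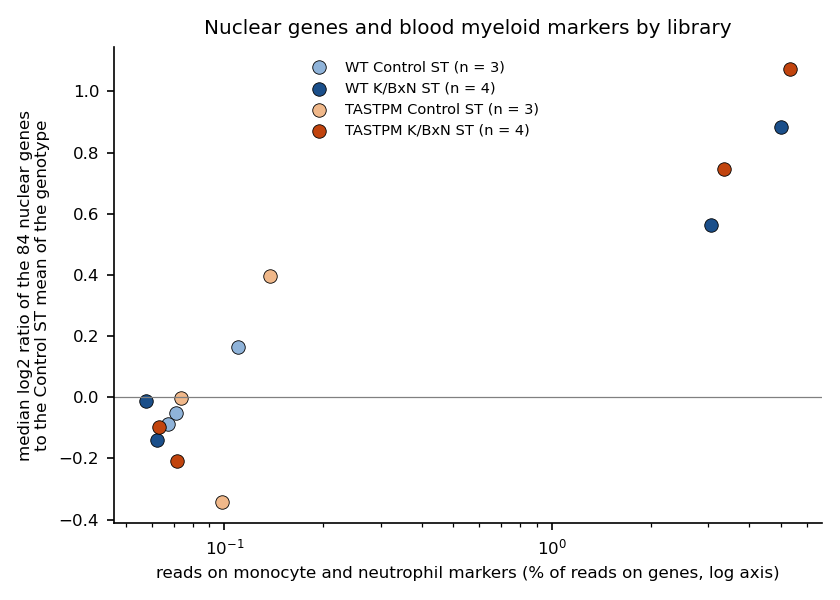
Median log2 ratio of the 84 nuclear members (y axis) against the share of reads on 15 monocyte and neutrophil markers (x axis, percent, log axis), 1 point per library, coloured by group. The 4 libraries with 3.07% or more of their reads on the markers have the 4 highest medians, 0.56 to 1.07.

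The medians were also taken complex by complex, and differences between complexes were not tested. In TASTPM K/BxN ST replicate 1 the median log2 ratio was 1.27 for complex IV (15 nuclear members), 1.24 for complex V (17), 1.07 for complex III (9), 0.93 for complex I (39) and 0.75 for complex II (4). Complex IV had the highest median and complex II the lowest in TASTPM K/BxN ST replicate 2 (1.03 and 0.40) and in WT K/BxN ST libraries 1 (1.15 and 0.43) and 2 (0.69 and 0.37) as well. The 4 complex II members were not alike. In these 4 libraries, in the order just used, the log2 ratios of Sdhb were 1.21, 0.56, 1.04 and 0.82. Those of Sdhd were 1.11, 0.68, 0.53 and 0.41. Sdha was at 0.19, -0.05, 0.33 and 0.34, and Sdhc at 0.39, 0.24, 0.26 and -0.17. The flavoprotein subunit Sdha had the narrowest range of all nuclear members, with 4556 to 6713 normalised counts over the 14 libraries. Its ratio of highest to lowest was 1.47, against 3.31 for Sdhb.

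Cox6a1 and Cox4i1 of complex IV and Atp5b of complex V show the pattern, while Cox6a2 of complex IV departed from it, with log2 ratios of -0.63, 1.25, -0.49 and -2.03 in the 4 libraries with high markers. After K/BxN ST, Cox6a1 had 4701, 4111, 1693 and 1909 normalised counts in TASTPM replicates 1 to 4 and 4214, 3084, 2084 and 1637 in WT libraries 1 to 4. After Control ST it had 1864, 2866 and 1397 in TASTPM and 2391, 1654 and 1729 in WT. Each of the 4 libraries with high markers was therefore above all Control ST libraries, and the other 4 K/BxN ST libraries lay among them. After K/BxN ST, Cox4i1 had 5734, 4556, 2284 and 2375 normalised counts in TASTPM and 5196, 4411, 2493 and 2242 in WT, against 2206 to 3597 in the 6 Control ST libraries. Atp5b in complex V had 20378, 14918, 9678 and 10852 in TASTPM and 17130.5, 13978, 9549 and 9617 in WT after the same serum, against 8394 to 11647. In each of these genes the 4 libraries with high markers were above the 10 others.

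Coding length was set beside the size of the ratio. Of 81 nuclear members with a coding length, 39 had fewer than 400 coding bases. In TASTPM K/BxN ST replicate 1 the median log2 ratio was 1.33 for these and 0.93 for the 42 longer members, and in WT K/BxN ST library 1 it was 0.96 and 0.81. The Spearman correlation of ratio and coding length over the members, given as a description, was -0.52, -0.49, -0.29 and -0.25 in the 4 libraries with high markers. It was -0.46 in TASTPM Control ST library 2, and -0.11 to 0.38 in the other 9, with 0.29 and 0.22 in TASTPM K/BxN ST replicates 3 and 4. Short genes in general stood higher in these libraries: among all tested genes with a coding length the medians were 0.65 for 614 short and 0.03 for longer genes in TASTPM K/BxN ST replicate 1, and 0.63 and 0.08 in WT K/BxN ST library 1. The longer members reach a smaller range of lengths than the longer genes, so the sets are not matched for length. All 4 complex II members are among the longer members, and most of complex IV among the short ones. The part that length, or RNA quality, has in the ratios was not tested.

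Across the 14 libraries the nuclear members moved together. The Pearson correlation of a member with the mean log2 value of the 84 ranged from 0.14 to 0.99 with a median of 0.89. Of the 84, 38 were above 0.9. Over all genes tested the median was 0.03, and 257 of 12645 genes were above 0.9. The members share in that mean, and all points share the library, so these values are a description. Cox6a1 (0.99) and Cox4i1 (0.99) were closest to the mean. Ndufab1, the mitochondrial acyl carrier protein (0.14), Cox6a2 (0.18), the iron-sulphur subunit Ndufs1 (0.22) and Atp5g2 (0.32) were farthest from it. Outside the members the most alike genes were Chchd2 (0.98), a mitochondrial protein that also binds complex IV, Scp2-ps2 (0.98), the ribosomal protein gene Rps18 (0.98), the ubiquitin-like Nedd8 (0.97) and Rps16-ps2 (0.97).

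The promoters of 3 members are shown because each holds a motif of nuclear respiratory factor 1 (NRF1) or YY1, known regulators of respiratory genes. The RefSeq windows of mouse build GRCm38.p6, 250 bases before to 50 after the start, are those of Cox6a1 (chr5:115348909-115349208, minus strand), Uqcrc1 (chr9:108936398-108936697, plus strand) and Ndufs4 (chr13:114388045-114388344, minus strand). Capitals mark the NRF1 motif in Cox6a1 and Uqcrc1 and the YY1 motif in Ndufs4.
Cox6a1: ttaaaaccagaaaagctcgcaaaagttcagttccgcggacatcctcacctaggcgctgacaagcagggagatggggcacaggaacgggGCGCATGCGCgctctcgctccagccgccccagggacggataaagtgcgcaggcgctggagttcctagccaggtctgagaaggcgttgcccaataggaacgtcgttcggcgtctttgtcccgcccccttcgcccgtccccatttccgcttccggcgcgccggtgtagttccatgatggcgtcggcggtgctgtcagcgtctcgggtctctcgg
Uqcrc1: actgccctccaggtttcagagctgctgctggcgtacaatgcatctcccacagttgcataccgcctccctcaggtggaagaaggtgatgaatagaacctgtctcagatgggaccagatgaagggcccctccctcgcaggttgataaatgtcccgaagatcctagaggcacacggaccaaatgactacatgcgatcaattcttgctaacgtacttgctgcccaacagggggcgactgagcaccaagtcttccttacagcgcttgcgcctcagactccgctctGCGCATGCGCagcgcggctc
Ndufs4: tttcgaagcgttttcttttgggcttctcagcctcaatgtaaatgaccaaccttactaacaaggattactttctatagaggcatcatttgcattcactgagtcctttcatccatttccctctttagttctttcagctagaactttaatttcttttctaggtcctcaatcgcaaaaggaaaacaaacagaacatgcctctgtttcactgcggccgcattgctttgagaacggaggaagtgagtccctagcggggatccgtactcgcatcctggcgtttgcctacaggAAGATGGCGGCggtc
Windows were matched for 67 member genes (72 windows) and searched on both strands. The NRF1 motif was in 6.94% of member windows and 0.971% of all 32851 windows, and the YY1 motif in 5.56% and 0.633%. The GABPA motif ACTTCCGG was in 6.94% and 3.89%, and the TATA box TATAAA in 9.72% and 13.6%. A match describes these letters and is not evidence of binding.

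Within WT, the comparison of K/BxN ST with Control ST asks what the arthritogenic serum changed in spinal microglia. In the limma test over 12645 genes, none of the 97 members was called (adjusted p under 0.05 and a log2 fold change beyond 1 in either direction), where 0.00791% of all genes (1 gene, Rarg) were called. The median log2 fold change of the 84 nuclear members was 0.30, with 74 above 0, against a median of 0.06 over all genes. At an unadjusted p below 0.05, 3 nuclear members were higher and 0 lower, and over all genes 4.77% were higher and 2.36% lower. By complex the median log2 fold change was 0.29 for I, 0.17 for II, 0.29 for III, 0.36 for IV and 0.34 for V. Without the 4 libraries with high markers the median of the 84 was -0.09 with 28 above 0, and the complexes lay between -0.15 and 0.03. EdgeR's quasi-likelihood test called 0 genes of any kind, and DESeq2 called 0 members in WT while 0.933% of all genes were called higher and 0.0712% lower.

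In TASTPM the same comparison gave a like picture. Again 0 members, and 0.0% of all genes, were called by limma. The median log2 fold change of the 84 nuclear members was 0.37, with 79 above 0, against 0.01 over all genes. At an unadjusted p below 0.05, 4 nuclear members were higher and 0 lower, against 2.62% higher and 1.6% lower over all genes. The complex medians were 0.36 for I, 0.25 for II, 0.37 for III, 0.44 for IV and 0.33 for V. Without the 4 libraries the median of the 84 was -0.16 with 24 above 0, and complex IV was at -0.24 with 0 of 15 above 0. The sign of the median thus turned when TASTPM K/BxN ST replicates 1 and 2 were left out.

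**Figure D4:**
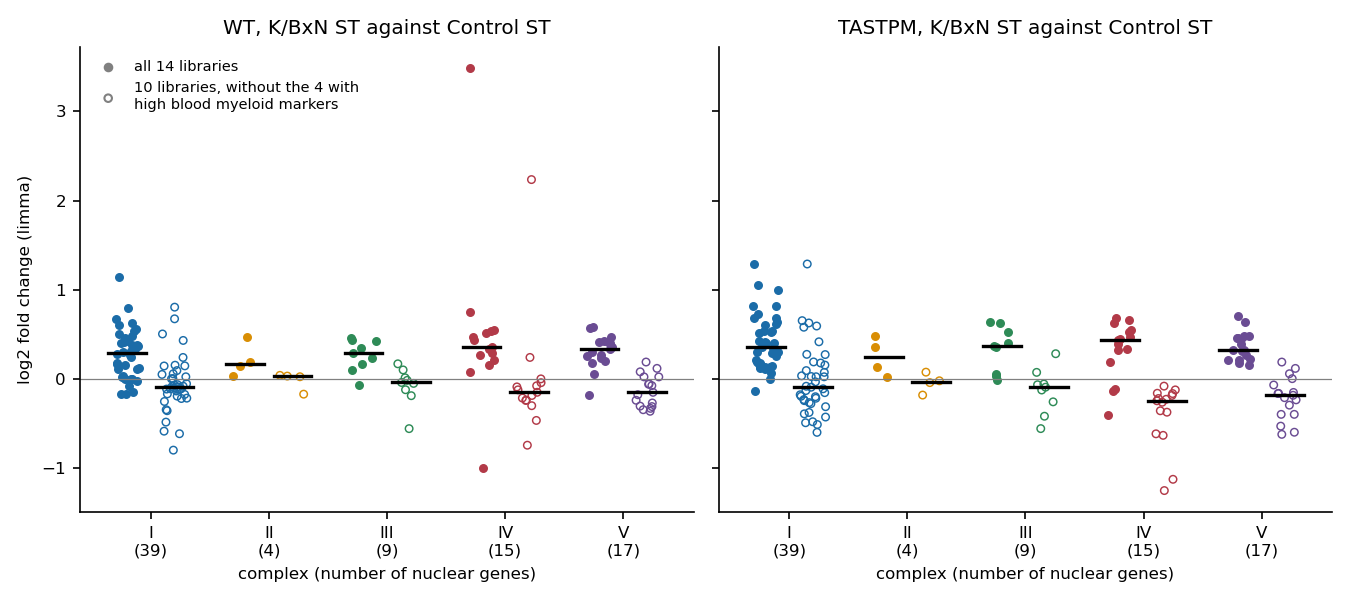
Limma log2 fold change, K/BxN ST against Control ST (y axis), of the nuclear members by complex (x axis) in WT (left) and TASTPM (right). Filled points use all 14 libraries and open points the 10 without high monocyte and neutrophil markers, with medians as bars, which for complex IV in TASTPM go from 0.44 to -0.24.

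Ndufs4 and Ndufv1, subunits of the part of complex I that takes electrons from NADH, did not overlap between the 2 sera in WT. Ndufs4 had 1057, 879, 854 and 813 normalised counts after K/BxN ST and 545, 514 and 721 after Control ST, with a log2 fold change of 0.61 (SE 0.26, limma adjusted p = 0.684). Ndufv1, which binds FMN, had 1606, 1251, 1200.5 and 1191 against 582, 1102 and 652, a log2 fold change of 0.80 (SE 0.36, limma adjusted p = 0.684). Without the 4 libraries the log2 fold changes were 0.51 (SE 0.29) and 0.68 (SE 0.38). In TASTPM they were 0.18 (SE 0.26) and 0.73 (SE 0.36), with overlapping groups, and without the 4 libraries -0.15 (SE 0.29) and 0.19 (SE 0.38).

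Counts of genes without overlap between groups were near the background. In WT, 2 of 84 nuclear members (Ndufs4 and Ndufv1) were higher in every K/BxN ST library and 1 (Cox6a2) lower, where 3.67% and 3.71% of all genes were. In TASTPM, 3 (among them Ndufab1 and the complex III core protein Uqcrc1) were higher in every K/BxN ST library and 0 lower, where 2.67% and 2.74% of all genes were. Uqcrc1 had 7814, 6049, 4632 and 3854 against 3699.9, 3251 and 3466 normalised counts, a log2 fold change of 0.64 (SE 0.29, limma adjusted p = 0.964). Its log2 ratios in replicates 1 to 4 were 1.17, 0.80, 0.42 and 0.15, so replicates 1 and 2, with high markers, carried most of the difference. Ndufab1 had 754, 749.5, 1013 and 778 against 723, 569.6 and 434, and here the highest value was in replicate 3, which had low markers.

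The 2 accessory subunits of complex I with the largest differences among the 4 at an unadjusted p below 0.05 in TASTPM overlapped between groups. Ndufa1 had 2197, 1688, 987 and 748 normalised counts after K/BxN ST against 748, 818 and 433 after Control ST (log2 fold change 1.00, SE 0.41, limma adjusted p = 0.964). Ndufb11 had 1537, 998, 725 and 572 against 487, 784 and 208 (log2 fold change 1.05, SE 0.44, limma adjusted p = 0.964), and shares 44.4% of its coding bases with Rbm10 on the other strand. For both, the first 2 replicates carried most of the difference, and without the 4 libraries the log2 fold changes were 0.42 (SE 0.34) and 0.58 (SE 0.48).

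Cox6b2 had the largest WT log2 fold change of the nuclear members, from few reads. It had 102, 55.8, 20.3 and 7.63 normalised counts after K/BxN ST and 0, 0 and 22.9 after Control ST. The fitted log2 fold change of 3.48 (SE 1.25, limma adjusted p = 0.642) depends on the pseudocount because 2 libraries were at 0. The groups overlapped, and in TASTPM the log2 fold change was 0.63 (SE 1.25).

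The interaction of genotype and serum asks whether TASTPM microglia differed from WT in the change. No member was called, against 0.0% of all genes, and 0 of the 84 nuclear members had an unadjusted limma p below 0.05, where 1.42% of all genes were higher and 1.63% lower. DESeq2 called 0 members too, where it called 0.0316% of all genes higher and 0.0633% lower. The median interaction of the nuclear members was 0.06, against -0.05 over all genes, and it was -0.17 (28 of 84 above 0) without TASTPM K/BxN ST replicate 1 and 0.27 (70) without replicate 3.

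TASTPM against WT asks for the difference of genotypes within each serum. Within Control ST 0 members and 0.0% of all genes were called by limma, and the nuclear median log2 fold change was -0.01, with 41 of 84 above 0. At an unadjusted p below 0.05, 1 nuclear member was higher (Cox6b2) and 1 lower (Atp5g2), against 3.41% and 2.16% of all genes. Non-overlap was seen for the pseudogene Ndufs6b higher and Atp5g2 lower in TASTPM, 1 of 84 each, where 4.97% and 4.71% of all genes did not overlap. Atp5g2 had 729, 963 and 711 normalised counts for TASTPM and 1197, 1063 and 1175 for WT, and its log2 fold change was -0.53 (SE 0.20, limma adjusted p = 0.807). It holds a run of 441 bases that occurs elsewhere in the genome. The nuclear median within Control ST was -0.20 (22 of 84 above 0) without TASTPM Control ST library 2 and 0.19 (65) without library 3. Within K/BxN ST, 0 members and 0.0% of all genes were called, and the nuclear median was 0.07 with 58 of 84 above 0. It was -0.18 (17 above 0) without TASTPM K/BxN ST replicate 1 and 0.28 (78) without replicate 3. Within K/BxN ST, 0 nuclear members had an unadjusted p below 0.05 (1.0% of all genes were higher and 0.902% lower), and 0 nuclear members were without overlap, where 1.16% and 0.672% of all genes were higher and lower.

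The 13 mitochondrially encoded members fell into 2 sets by their spread, and the sets followed their place on mitochondrial DNA. Together they took 0.439% to 1.35% of the reads on genes, with a median of 0.686%. A nuclear copy of mitochondrial DNA lies on chromosome 1 of GRCm39 (chr1:24650616-24655269, minus strand). It matches chrM:6390-11042 at 99.936% identity over 4654 aligned bases with 3 differences. The genes mt-Co2, mt-Atp8, mt-Atp6, mt-Co3, mt-Nd3 and mt-Nd4l lie wholly inside the copied stretch, mt-Nd4 by 63.6% and mt-Co1 by 31.3%. Reads from these stretches fit 2 places of the genome almost equally. The pair of windows around one of the differences, T9461C in mt-Nd3 (chrM position, the mitochondrial base first), is shown to make plain how alike the 2 copies are, with that base in capitals (chrM:9431-9491, plus strand, and chr1:24652168-24652228, minus strand).
mitochondrial DNA: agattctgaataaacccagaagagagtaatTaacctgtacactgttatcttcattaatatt
chr1 copy: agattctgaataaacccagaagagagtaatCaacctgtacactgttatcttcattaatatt

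The 6 genes inside the copy varied 23.7-fold to 450-fold (highest over lowest library, median 299), and the 7 others 2.33-fold to 3.68-fold (median 2.67). Of these 7, mt-Co1 and mt-Nd4, which flank the 6 and lie partly inside the copy, varied 2.61-fold and 3.31-fold. Reads from their parts outside the copy limit that range, so counts per gene do not show where the boundary lies. Over the nuclear members the median ratio was 3.31 and over all genes tested 3.63. The copy has rows of its own in the deposited values for 5 of the 6 genes, and adding their values to those of the mitochondrial genes left a range of 19.2-fold to 228-fold.

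**Figure D5:**
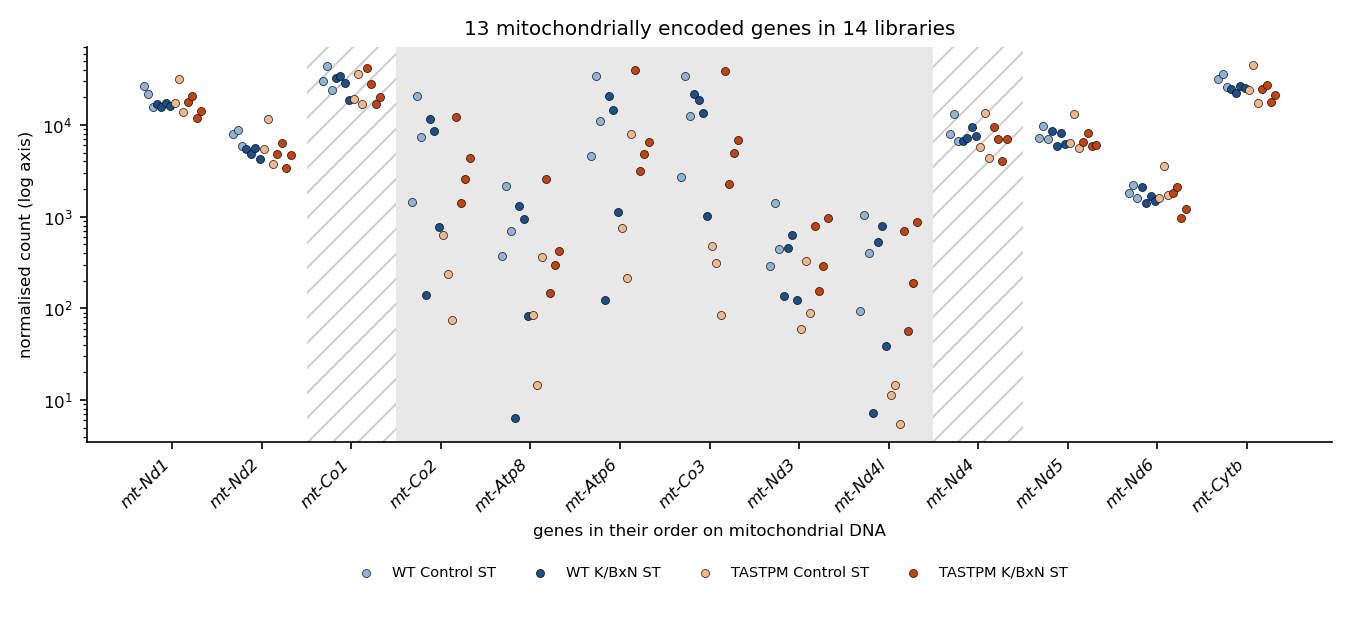
Normalised counts (log axis) of the 13 mitochondrially encoded genes, in their order on mitochondrial DNA (x axis), 1 point per library, coloured by group. Grey marks the 6 genes inside the chromosome 1 copy and hatching the 2 partly inside; the 6 range over 23.7-fold or more and the other 7 over 3.68-fold or less.

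mt-Co3, a core subunit of complex IV, had the widest range. For TASTPM, its normalised counts were 38418, 2272, 4929 and 6850.3 over K/BxN ST replicates 1 to 4 and 477, 312 and 85.4 after Control ST. For WT they were 21614, 18591, 13428 and 1022 after K/BxN ST and 2731, 34251 and 12542 after Control ST. The TASTPM Control ST libraries were thus below all 11 others. The limma log2 fold change was 4.97 (SE 1.13, adjusted p = 0.964) for K/BxN ST against Control ST in TASTPM, -5.49 (SE 1.21, adjusted p = 0.442) for TASTPM against WT within Control ST and -0.29 (SE 1.13, adjusted p = 0.961) for K/BxN ST in WT. DESeq2 called mt-Co3 in TASTPM (log2 fold change 5.49, adjusted p = 8.93e-04) and within Control ST (-5.82, adjusted p = 6.73e-04), and called mt-Nd4l, a small complex I subunit, in the same comparisons (5.45, adjusted p = 0.0205, and -5.62, adjusted p = 0.0187). DESeq2 called 0.111% of all genes higher and 0.0158% lower in TASTPM, and 0.261% higher and 0.0633% lower within Control ST.

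Genes transcribed together did not keep together in single libraries. In WT K/BxN ST library 1, mt-Co3 was at 21614 normalised counts while mt-Co2 was at 140.0 and mt-Atp6, whose gene abuts mt-Co3, at 125. In TASTPM Control ST library 3 the reverse was seen, with mt-Atp6 at 7994, mt-Co3 at 85.4 and mt-Co2 at 74.5. These genes are cut from 1 long transcript of the heavy strand, as are most others on mitochondrial DNA. Over the 14 libraries the pairwise Pearson correlation was 0.45 to 0.99 among the 6 and 0.62 to 0.96 among the 7, and it was 0.02 between the means of the 2 sets. These correlations carry no test, and their points share libraries.

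For the 6, the limma log2 fold changes in TASTPM lay between 1.84 and 4.97 with 4 at an unadjusted p below 0.05, and within Control ST between -5.49 and -2.22 with 4 lower, where 2.62% of all genes were higher and 2.16% lower at this p. The interaction was between 2.93 and 6.39, with all 6 at an unadjusted p below 0.05 (1.42% of all genes were higher) and a smallest adjusted p of 0.999. In TASTPM mt-Co2, mt-Co3 and mt-Nd4l, 3 of 13, were higher in every K/BxN ST library, and within Control ST mt-Atp8, mt-Co2, mt-Co3 and mt-Nd4l, 4 of 13, were lower in every TASTPM library, where 2.67% and 4.71% of all genes were. In TASTPM the median log2 fold change of the 6 was 3.46, and 3.14 without the libraries with high markers. The comparison within Control ST holds none of those libraries. The part that the placement of reads between mitochondrial DNA and the copy has in these values was not tested, and the 6 genes are reported as uncertain.

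The 7 other mitochondrial genes had a narrower range. Their median log2 fold change was -0.22 in WT (0 of 7 above 0) and -0.25 in TASTPM (1 of 7 above 0), and -0.21 and -0.13 for the genotypes within Control ST and K/BxN ST. Single libraries moved these values. The WT median was -0.04 (2 of 7 above 0) without WT Control ST library 2 and -0.42 without WT Control ST library 3. The TASTPM median was 0.13 (6 of 7 above 0) without TASTPM Control ST library 2, the median within Control ST was 0.10 without TASTPM Control ST library 3, and that within K/BxN ST was 0.02 without TASTPM K/BxN ST replicate 3. Without the 4 libraries with high markers it was -0.45 in TASTPM and -0.24 in WT, with 0 of 7 above 0 in each. The highest of the 7 per kilobase, mt-Cytb, the cytochrome b of complex III, had 24401, 27346, 17955 and 21293 normalised counts for TASTPM after K/BxN ST and 24149, 45146 and 17384 after Control ST. For WT it had 24458, 22086, 26766 and 25414 after K/BxN ST and 31568, 35599.8 and 26213 after Control ST. Its log2 fold changes were -0.25 (SE 0.27, limma adjusted p = 0.964) in TASTPM and -0.33 (SE 0.27, limma adjusted p = 0.791) in WT. The complex I subunit mt-Nd2 was lower in every WT K/BxN ST library (4279 to 5603) than in WT Control ST (5872 to 8897), with a log2 fold change of -0.57 (SE 0.32, limma adjusted p = 0.732), where 3.71% of all genes were lower in every library. In the 4 libraries with high markers the median log2 ratio of the 7 was -0.15, 0.04, -0.32 and -0.41, where that of the nuclear members was 1.07, 0.74, 0.88 and 0.56. In the K/BxN ST libraries 3 and 4, without high markers, the median of the 7 was -0.74 and -0.35 for TASTPM and -0.16 and -0.37 for WT. Over the 14 libraries the mean log2 value of the 7 and that of the nuclear members had a Pearson correlation of 0.39 and a Spearman correlation of 0.62, given as a description.

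Genes around the respiratory chain were read from fixed lists, and 0 of them were called by limma in any of the 5 comparisons. The counts that follow, at an unadjusted p below 0.05, are to be read against 4.77% of all genes higher and 2.36% lower in WT, and 2.62% and 1.6% in TASTPM. Of 43 tested assembly factors, 2 were higher and 1 lower at an unadjusted p below 0.05 in WT, and 0 in TASTPM, with median log2 fold changes of 0.01 and -0.07. In the 4 libraries with high markers their median log2 ratio was 0.29, 0.01, 0.17 and 0.14, below that of the subunits in each. Of 18 regulators of mitochondrial biogenesis, such as Ppargc1a, Nrf1 and Tfam, 1 was higher and 1 lower in WT and 0 and 1 in TASTPM, with medians of 0.04 and 0.00. Of 13 genes for mobile electron carriers and for exchange across the membranes, such as cytochrome c (Cycs) and the ADP/ATP carriers, 1 was higher in WT and 0 in TASTPM, with medians of 0.25 and 0.12. Of 15 genes of mitochondrial quality control, such as Pink1 and Opa1, 1 was lower in WT and 0 in TASTPM, with medians of -0.10 and -0.07. Atpif1, the inhibitor of the ATP synthase, had 519.7 to 1477 normalised counts and log2 fold changes of 0.19 (SE 0.34, limma adjusted p = 0.906) in WT and 0.16 (SE 0.34, limma adjusted p = 0.970) in TASTPM.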

How the data were processed

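RNA-seq of 14 libraries of sorted mouse microglia was analysed. Per the labels and the methods, the authors amplified cDNA with SMART-Seq, aligned reads with HISAT2 2.1 to GRCm39 and counted them per gene with featureCounts 1.5.2. The authors deposited a signal: reads of each gene, scaled by a factor for the library (normalised counts). Whole reads were recovered for 100% of values within 0.001, so 1 read and the depth (14223015 to 20239175 reads on genes) are known. Libraries were joined to groups by the group named above each column.

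The filter kept genes with 10 or more reads in 7 or more libraries (12645 of 14329). They were tested on log2(value + 1), a scale that understates changes of low genes, with limma 3.58.1 in R 4.3.3, 1 trended fit to 4 groups and 5 comparisons, Benjamini-Hochberg adjusted. The counts-based test was replaced because the unit is a signal, and edgeR 4.0.16 and DESeq2 1.42.0 were run on recovered reads as alternatives. All were checked on simulated data with large planted changes and a spread taken from the Control ST libraries. That check does not measure the power to find changes as small as the medians of the members. Other scalings, filters, pseudocounts, covariates and left-out libraries were tried. Positions and overlaps are from GRCm39 with an annotation later than that of the authors.

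Members and lists were chosen with earlier results of these data known. Single genes were named by a rule: all mitochondrial members, the highest and lowest nuclear member of each complex, the 3 nuclear members with the smallest p in each comparison, isoform pairs, members called by any tool and the 5 genes most like the nuclear mean. Genes outside the rule, such as those without overlap between groups, were named after their values were seen. Some items are not reported here.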

Additional observations from a re-analysis of the deposited data

Results flagged for a closer look

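In groups of 4 libraries, 3 of 90 sets of values (named genes on the log2(value + 1) scale, the mean of the nuclear members and the mitochondrial share of reads) had a library far from the rest (a gap to the nearest of the others, as a share of the range of the group, above the 95% critical value of Dixon). Chance flags about 1 in 20 such groups. mt-Co3 in WT K/BxN ST had a gap of 0.844 of the range on the log2 scale, from library 4 with 1022 normalised counts against 13428 to 21614 in the others, and it lies inside the chromosome 1 copy of mitochondrial DNA. Ndufv1 in WT K/BxN ST had a gap of 0.836, from library 1, which also had high monocyte and neutrophil markers, with 1606 normalised counts against 1191 to 1251. Ndufab1 in TASTPM K/BxN ST had a gap of 0.874, from replicate 3, which had low markers, with 1013 normalised counts against 749.5 to 778.

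For Atp5g2, a c-ring gene of the ATP synthase, the K/BxN ST libraries lay on opposite sides of the Control ST mean in the 2 genotypes. All 4 WT K/BxN ST libraries (910.2 to 1113 normalised counts) were below the WT Control ST mean and all 4 TASTPM K/BxN ST libraries (821 to 942) were above the TASTPM Control ST mean. The interaction of genotype and serum was 0.36 on the log2 scale (SE 0.27, limma adjusted p = 0.999), so the difference between the genotypes did not pass the test.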

How the results depend on the processing

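The number of members called was 0 in each of the 5 comparisons under every alternative except DESeq2, which called 2 (mt-Co3 and mt-Nd4l) for K/BxN ST in TASTPM and 2 (the same genes) for TASTPM against WT within Control ST. The median log2 fold change of the nuclear members in TASTPM moved from 0.37 to -0.17 with the marker score as covariate and to -0.16 without the 4 libraries with high monocyte and neutrophil markers. In WT it went from 0.30 to -0.15 and -0.09. Leaving out 1 library at a time gave 0 called members throughout, and nuclear medians of 0.12 (without WT K/BxN ST library 1) to 0.48 in WT, 0.13 (without TASTPM K/BxN ST replicate 1) to 0.55 in TASTPM, -0.17 to 0.27 for the interaction, -0.20 to 0.19 within Control ST and -0.18 to 0.28 within K/BxN ST. For the mitochondrial members these ranges were -0.55 to -0.30, -0.09 to 0.49, 0.12 to 0.68, -0.83 to -0.26 and -0.19 to 0.06. All other alternatives left the medians within 1 within-group SD (0.47 nuclear, 0.49 mitochondrial). The nuclear SD is larger than the main nuclear median of every comparison, the largest being 0.37. A nuclear median could thus change sign within it, and this does not show that the medians were stable. A score of sex-linked genes as covariate gave nuclear medians of 0.41 in WT and 0.13 in TASTPM. Of 215 fold changes of named genes, 55 changed sign with the marker score as covariate and 58 without the 4 libraries, 32 with the score of sex-linked genes, 13 with edgeR, 14 with DESeq2, 9 to 30 on leaving out 1 library (30 without TASTPM K/BxN ST replicate 1), and at most 6 under another scaling. Over the 81 nuclear members with coding bases, an alternative chosen after seeing the data, the medians were 0.30 in WT, 0.37 in TASTPM, 0.08 for the interaction, -0.01 within Control ST and 0.07 within K/BxN ST. The causes were not tested. No paired analysis was possible because the labels give the groups no shared replicate numbers.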
